A study of Microtus ochrogaster with 23 samples.

Results

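The genes described here were short, intronless and close to others of the same kind in the prairie vole (Microtus ochrogaster) genome, a layout typical of odorant and other chemosensory receptor genes. They were taken from the gene models against which dentate gyrus RNA-seq reads were counted. A gene model was kept when its merged exons formed exactly 1 block of 880 to 1100 bp off the X chromosome and the mitochondrial genome, and when at least 2 other such models had a start within 200000 bp on the same chromosome, linkage group or scaffold. Of 23038 gene models, 4626 had a single block, 290 of these fell in the length range and 286 lay off the X and mitochondrial sequences. Of the 286, 129 had the required neighbours and are called members below, which is 0.56% of all gene models. The other 157 are called isolated models and serve as the comparison. Isolated means only that fewer than 2 other such gene models lay nearby, so neighbouring genes without a gene model were not considered.

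The study sequenced RNA from dentate gyrus punches of wild-type (WT) adult voles after a test with an unfamiliar pup. Its labels give 23 samples, with 6 virgin males that cared for the pup ("Parental"), 6 virgin males that attacked it ("Attacker"), 5 pair-bonded males with a litter ("Father") and 6 pair-bonded females with a litter ("Mother"). The 23 columns of read counts are named by codes found in none of these labels, and no read count was used. Expression of the members, in any group or over all libraries, was therefore not analysed here. The values below describe the gene models on which such counts rest.

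Odorant receptors are G protein-coupled receptors of olfactory sensory neurons. Their coding sequence usually sits in 1 exon, and their genes arose largely by tandem duplication, so close relatives often stand side by side. Trace amine-associated receptors share this layout, as do many bitter taste receptors. All 3 families are best known from the nose and tongue, and members of each have also been detected in other tissues.

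The members stood in 27 arrays on 17 sequences, an array being a run of members whose successive starts lay within 200000 bp. Chromosome 7 held the most members (22 in 3 arrays), followed by chromosome 5 (16 in 4 arrays) and the linkage group LG4 (12 in 3 arrays). A total of 88 members lay on chromosomes or linkage groups, and 41 (31.8%) lay on 7 unplaced scaffolds. The scaffold share among all gene models, with the 37 of the mitochondrial genome counted in, was 28.9%. Among the isolated models it was higher, with 61 on scaffolds (38.9%). Scaffold JH996503.1 carried 11 members among 64 gene models (17.2%), and LG12 carried 6 among 38 (15.8%). On chromosome 7 the members made up 1.47% of the gene models.

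Arrays held a median of 4 members, and 13 arrays of 5 or more held 86 members (66.7%). The span from the first to the last member ranged from 34077 to 570378 bp, with a median of 160030 bp, over the 26 arrays of more than 1 member. A lone member, ENSMOCG00000003332 on scaffold JH996451.1 (975 bp), had the 2 required neighbours, but neither of these had 2 of its own.

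The array with the most members, 9, lay on scaffold JH996471.1 from 2516808 to 3087185 of the MicOch1.0 assembly. It began with ENSMOCG00000002704 (948 bp, minus strand) and ended with ENSMOCG00000002040 (942 bp, plus strand). Its shortest member was ENSMOCG00000003018 at 939 bp and its longest ENSMOCG00000001160 at 972 bp. Strands alternated in blocks, with 4 members on the plus strand and 5 on the minus strand. In addition, 13 other gene models lay at least partly within its span.

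The array at the start of chromosome 7 (4543692 to 4779853) differed in its regularity, with all 8 members on the plus strand and only 2 lengths among them. Its first member, ENSMOCG00000001722 (939 bp), had the same start and end as the RefSeq gene LOC102000693. Its last, ENSMOCG00000001631, also had 939 bp and matched LOC101982942. The longest were ENSMOCG00000001991 (LOC101981808) and ENSMOCG00000001000 (LOC102002073), both of 942 bp. Genes unrelated to receptors lay within this array, namely the zinc finger genes Znf200 and Znf263 and Mefv, which encodes the inflammasome protein pyrin. Znf174 followed at 5458 bp beyond the last member.

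A second array of 8 on chromosome 7 (24839849 to 24963071) was the more compact, at 123223 bp, and held 5 plus and 3 minus members. Its first member was ENSMOCG00000001912 (939 bp, LOC101994555) and its last and shortest ENSMOCG00000002482 (936 bp, LOC101998954). Its longest, at 948 bp each, were ENSMOCG00000001839 (LOC101997531), ENSMOCG00000001777 and ENSMOCG00000001822. Only 1 other gene model lay inside it. Rap1gap2, a GTPase-activating protein gene, ended 20635 bp before the first member.

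The array on LG9 (1238339 to 1429682) also had 8 members, 7 of them on the minus strand. It ran from ENSMOCG00000006474 (939 bp, LOC101997771) to ENSMOCG00000008307 (936 bp, LOC102002119), and its longest member was ENSMOCG00000008754 (975 bp, LOC102000833). Members ENSMOCG00000008586 and ENSMOCG00000008985 of this array were the closest neighbours of all, 3912 bp apart on the same strand. Scaffold JH996503.1 held an array of 7 (990606 to 1238611), from ENSMOCG00000001901 to ENSMOCG00000022508, both of 954 bp. The longest member there, ENSMOCG00000002085, had 981 bp.

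**Figure D1:**
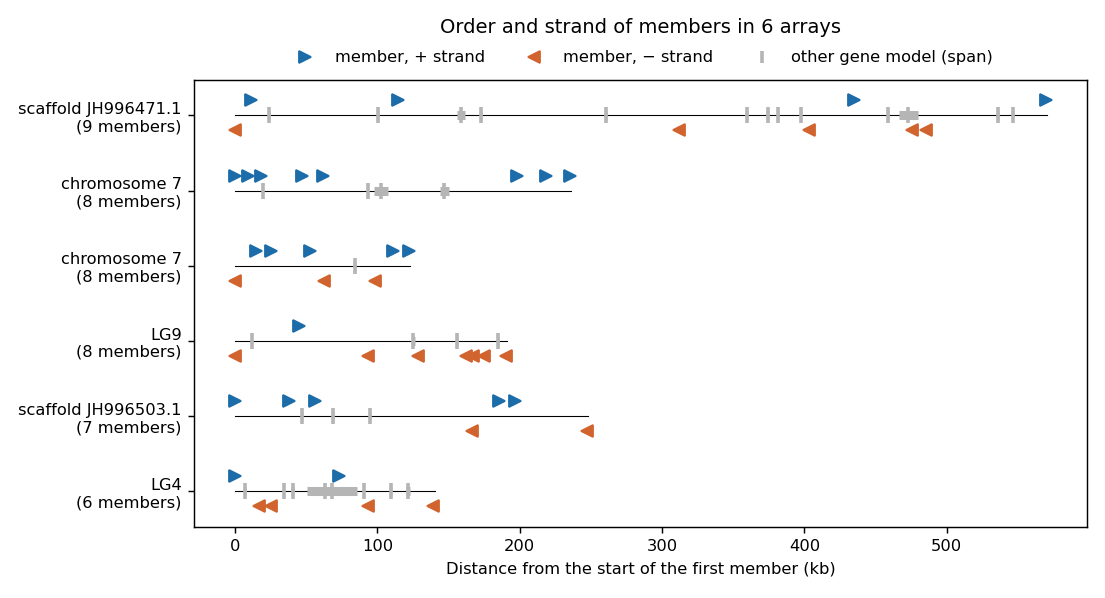
Members of the 5 arrays with the most members and of the LG4 array that holds Taar1, drawn to scale by distance in kb from the start of the first member. Blue triangles above the line are plus-strand members, orange triangles below it minus-strand members, and grey marks the spans of other gene models; all 8 members of the upper chromosome 7 array point the same way.

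Against a median of 942 bp over all 129 members, 2 arrays on LG4 stood apart by their longer members. The array with Gpbar1, described below, had a median of 1059 bp. The other (3413811 to 3554036) had 6 members of 1008 to 1077 bp, with a median of 1041 bp. The last of them, ENSMOCG00000001836 (3553029 to 3554036, minus strand, 1008 bp), matched Taar1, a trace amine-associated receptor gene known for its expression in the brain. The other 5 matched RefSeq genes that carry only a LOC number, a placeholder for a gene without an approved symbol. Stx7, a syntaxin gene, ended 27892 bp before the array, and Vnn1, a pantetheinase gene, began 16438 bp after it.

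Taar5, another trace amine receptor gene, lay inside this array in RefSeq (3498387 to 3499400) but was no member. Its bases fell in ENSMOCG00000015154, a gene model of 3 blocks and 2048 exonic bp that ran from 3464348 to 3499400. The same gene model also covered LOC101987712, which began 34039 bp before Taar5 on the linkage group. Whether reads from both RefSeq genes were added into this 1 row was not tested, because the RefSeq list gives no strand and the strand setting of the counting is not given in the sources used here. Among 100 gene models that shared at least 50% of a RefSeq protein-coding gene of 880 to 1100 bp within the arrays, this was the 1 that did so for more than 1 such gene.

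The only other member with a RefSeq symbol that was not a LOC number was ENSMOCG00000006359 on LG4 (56751353 to 56752351, minus strand, 999 bp). It matched Gpbar1, a G protein-coupled bile acid receptor gene, which is not a chemosensory receptor of the nose or tongue. Its array had 3 members of 999, 1059 and 1080 bp spread over 127661 bp, and Arpc2, a gene of the actin-nucleating Arp2/3 complex, lay between them. Closeness and length alone therefore also admitted genes outside the tandem receptor families. RefSeq symbols identified 2 of the 88 members on placed sequences by family, and the list used here gives no descriptions, so the label of chemoreceptor could not be checked for the other 86.

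The 129 members ranged from 924 to 1080 bp, although the rule allowed 880 to 1100 bp. The shortest 3 members had 924 bp, and the longest, ENSMOCG00000005561 on LG4, had 1080 bp. Just outside the limits of length, ENSMOCG00000002178 on scaffold JH996521.1 (861 bp) and ENSMOCG00000009503 on chromosome 22 (1155 bp) met the neighbour condition once the length range was widened to 700 to 1400 bp. On the neighbour condition, 34 members had exactly 2 such models near them, while 42 isolated models had exactly 1 and 115 had 0.

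Lengths were concentrated on a few values. The commonest was 939 bp, or 313 codons, found in 29 members (22.5%), followed by 954 bp in 19 (14.7%) and 936 bp in 14 (10.9%). In the isolated models, 939 bp occurred in 4 of 157 (2.55%) and the commonest length was 957 bp, in 12 (7.64%). A length of at least 920 and under 960 bp was found in 107 members (82.9%) and 67 isolated models (42.7%). Since these are complete counts over 1 annotation and related genes are not independent, no test was applied.

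Every member length was a multiple of 3, as was every isolated length. In single-block gene models of other lengths the share was 1923 of 4336 (44.3%), but these were mostly far shorter, with a median of 126 bp. In gene models of 880 to 1100 bp with several blocks it was 986 of 1541 (64.0%). A length in whole codons is what a coding sequence without untranslated regions gives. The lengths of the members can therefore be coding lengths, but no start codon, stop codon or protein sequence was checked. The isolated models that matched a RefSeq pseudogene, 12 of 96, had lengths in whole codons too.

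**Figure D2:**
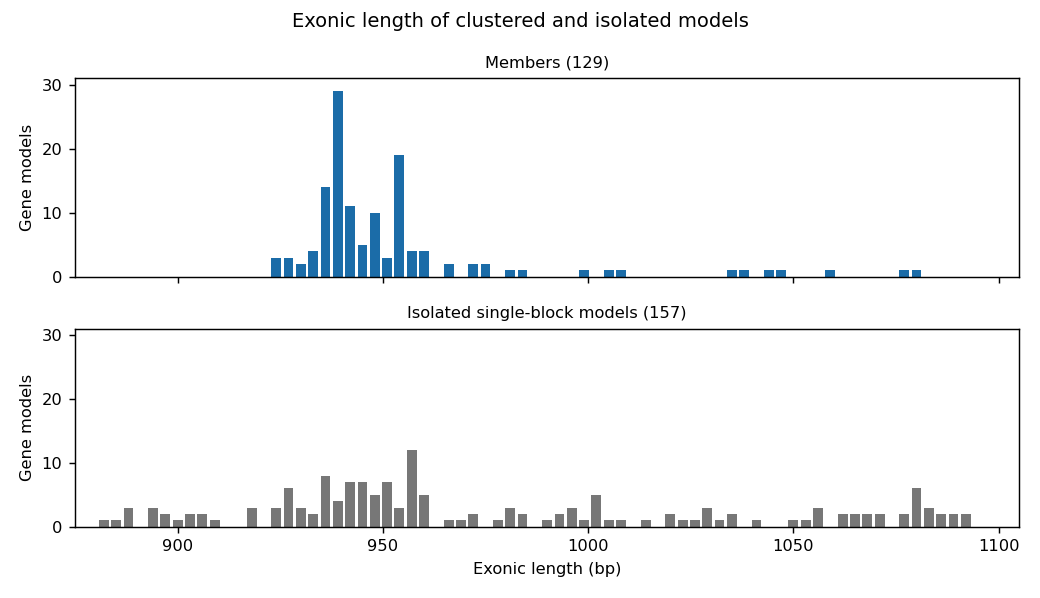
Number of gene models (vertical axis) at each exonic length in bp (horizontal axis), for the 129 members above and the 157 isolated single-block models below. The members peak at 939 and 954 bp, whereas the isolated models spread from 882 to 1092 bp.

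Over the 126 members in arrays of 3 or more, the SD of length was 11.6 bp within arrays and 26.2 bp between array means. This difference rested on the 2 LG4 arrays of longer members, those that hold Taar1 and Gpbar1. Without them, the SD over the remaining 117 members was 9.69 bp within arrays and 7.82 bp between array means. In 2 arrays all members had the same length of 939 bp, namely the 5 members on scaffold JH996473.1 and 3 members on LG4 (59189182 to 59226613). Neighbouring members differed in length by a median of 9 bp, and in 32 of 102 neighbouring pairs (31.4%) the lengths were equal.

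Strand was not used by the rule. Of the members, 60 lay on the plus and 69 on the minus strand, and 66 of 102 neighbouring pairs (64.7%) shared a strand. Equal lengths occurred in 27 of the 66 pairs on the same strand (40.9%) and in 5 of the 36 pairs on opposite strands (13.9%). In 7 arrays of 3 or more members, with 34 members in all, every member lay on the same strand. Neighbouring pairs share members and arrays, so these shares are given as a description.

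Neighbours were separated by a median of 30613 bp. The quartiles of this distance were 14096 and 66580 bp, and its extremes 3912 and 198927 bp. The upper end was fixed by the limit of 200000 bp. The median was 26003 bp for pairs on the same strand and 41707 bp for pairs on opposite strands, with wide overlap between both. None of the 129 members shared an exonic base with another gene model on either strand, and 3 lay within the span of another gene model.

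**Figure D3:**
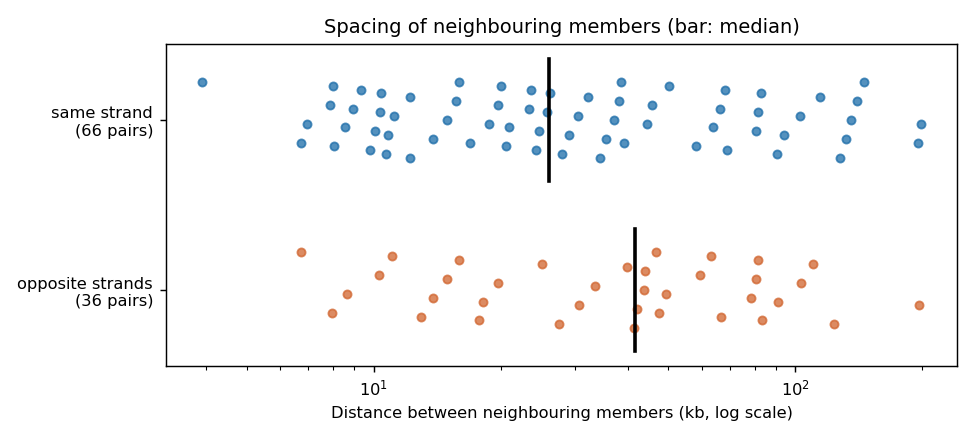
Distance between neighbouring members of an array in kb on a log axis, 1 point per pair, for the 66 pairs on the same strand and the 36 on opposite strands; points are offset vertically for clarity only and black bars are medians. Both kinds of pair cover nearly the whole range, from 3912 and 6732 bp upwards.

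The position of each member was compared with RefSeq, which annotates the same assembly, on sequences named alike in both. All 88 members there overlapped a RefSeq gene by at least 50% of their length, and all 88 of these genes were protein-coding. In the isolated models, 84 of 96 matched a protein-coding gene and 12 a pseudogene. Start and end were the same as in RefSeq for 61 of the 88 members (69.3%) and for 34 of the 96 isolated models (35.4%).

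Where the annotations differed, RefSeq was the longer in 24 members and the shorter in 3. The difference exceeded 1000 bp in 5 members. It was largest for ENSMOCG00000005561 (LOC102000826, 6523 bp in RefSeq against 1080 bp here) and next largest for ENSMOCG00000007944 on LG9 (LOC102001577, 5496 against 954 bp). Such spans can hold introns or untranslated regions, whose reads would fall outside the member. In the isolated models the difference exceeded 1000 bp in 29 of 96.

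The sets also differed in their symbols. Of the 88 matched members 86 (97.7%) had a LOC number, whereas 51 of 96 isolated models (53.1%) had a symbol. These included transcription factor genes (Sox2, Jun and Neurod4), the melanocortin receptor genes Mc2r, Mc3r and Mc4r, and other G protein-coupled receptor genes such as Cxcr4 and Cnr2. Tas2r41, a bitter taste receptor gene of 927 bp on LG12, had 0 other such models within 200000 bp and so was isolated, although it lay 348462 bp from the end of an array of 6 members.

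The arrays were less complete in the table than in RefSeq. Within the 19 arrays on placed sequences RefSeq listed 201 genes, of which 183 were protein-coding and 15 pseudogenes. Of the protein-coding genes, 147 had a span of 880 to 1100 bp, and 145 of these (98.6%) had a LOC number. The gene model sharing most bases with them was a member for 83 (56.5%) and a gene model of several blocks for 21 (14.3%). The remaining 43 (29.3%) shared no base with any gene model of the table, so reads from them had no row to be counted in. Such gaps were not particular to the arrays. On the same placed sequences, outside the arrays and without the X chromosome, 393 of 620 RefSeq protein-coding genes of this size (63.4%) shared no base with a gene model, and over all lengths the number was 1144 of 13642 (8.39%). The arrays were drawn from gene models of the table, so their own share is low partly by construction.

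The gaps were uneven. On LG9, 10 of the 19 RefSeq genes of this size shared no base with a gene model, among them LOC101979983, LOC101980273 and LOC101998070 in a row. The share was higher in the array of 2 on chromosome 2 (45637999 to 45835053), at 4 of 6 genes. The corresponding number was 6 of 12 in the array of 6 on chromosome 8, 6 of 12 on LG12, 4 of 8 in the array of 3 on chromosome 8, 4 of 9 on LG2 and 4 of 10 in the array of 6 on chromosome 7. In 5 further arrays exactly 1 such gene had no gene model, and in 7 of the 19 there was none. The 7 included the regular array at the start of chromosome 7, with 0 of 8, and the LG4 array that holds Taar1, with 0 of 10.

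**Figure D4:**
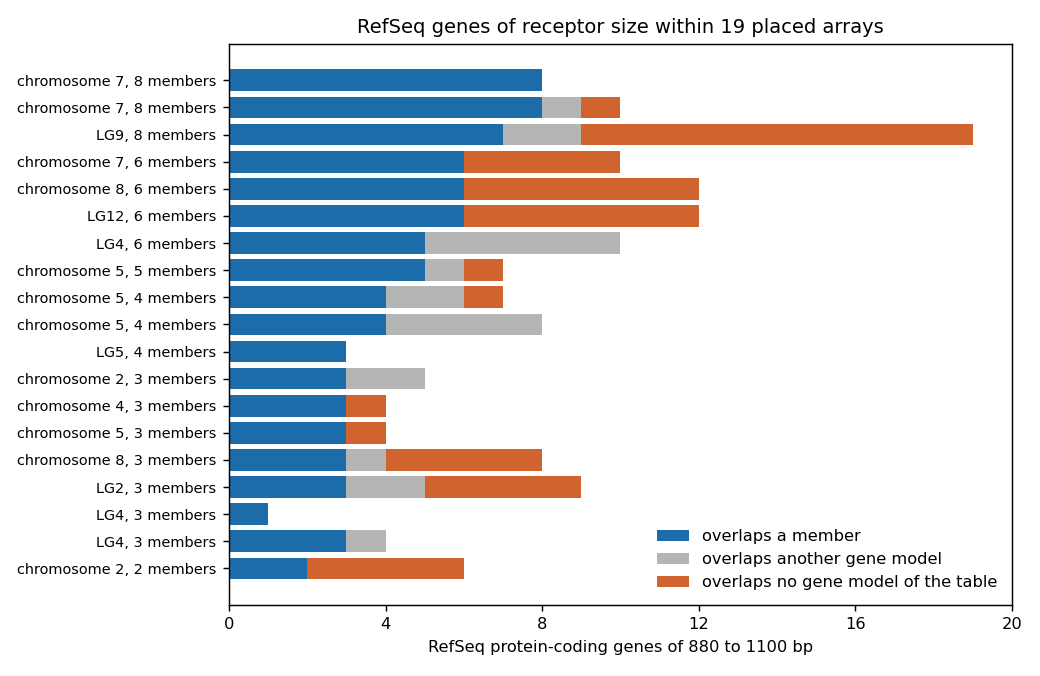
RefSeq protein-coding genes with a span of 880 to 1100 bp (horizontal axis, number of genes) in each of the 19 arrays on placed sequences, divided by whether the gene model sharing most bases with them was a member (blue), another gene model (grey) or none (orange). The LG9 array has the most genes without a gene model, 10 of 19.

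Other gene models lay at least partly within the spans of the arrays, 91 in all, and 43 of them (47.3%) had an exonic length of 880 to 1100 bp but more than 1 block. Of these, 37 had 2 blocks. In 20 of the 37 (54.1%) the gap between the blocks was at most 20 bp, and in 19 it was 1 to 3 bp, far shorter than a spliced intron. All 20 had an exonic length that was a multiple of 3. They lay in 11 of the 27 arrays. Examples on LG9 were ENSMOCG00000005842 (927 bp, gap of 1 bp, LOC106144234 in RefSeq) and ENSMOCG00000007899 (930 bp, gap of 3 bp, LOC102001856).

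A gap of 1 to 3 bp changes the number of blocks but hardly the place or length of the gene model, so these 19 gene models missed the rule by a few bases. Short gaps of this kind were not particular to the arrays. Outside them, 143 of 329 gene models of the same exonic length with 2 blocks (43.5%) had a gap of at most 20 bp. Over all 2004 gene models with 2 blocks, of any length, the share was 16.8%.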

How the data were processed

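Per the labels and the paper, the authors extracted RNA from dentate gyrus, depleted ribosomal RNA, sequenced directional libraries as read pairs, aligned reads with STAR to MicOch1.0 and counted them with featureCounts. The strand and multi-mapping settings of the counting are not given in the sources used here. The deposited table holds an identifier, exon positions, strand and exonic length in bp for each gene model, and 23 count columns whose codes match 0 sample labels. These 23 columns were not used, so depth was not computed and the planned count tests were not run.

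Exons that overlapped or abutted were merged. Members were chosen by block number, length and position, and joined into arrays while successive starts lay within 200000 bp. The members and lists were chosen with earlier results of these data known. Names came from the RefSeq list of MicOch1.0, matched by position (at least 50% of the member). It gives no strand and no descriptions, so the planned match by strand and the planned receptor classes were dropped, as were protein sequences. The genes named are the first, last, shortest and longest members of the 5 arrays with the most members, and the members with a symbol other than a LOC number. Other genes named (flanking, inner and isolated genes, edge cases and examples) were chosen after their values were seen. The member rule and the merging were tested on simulated data. Python 3.11.15, numpy 2.4.6, scipy 1.17.1 and matplotlib 3.10.9 were used. No test was applied, since the values are complete counts.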

Additional observations from a re-analysis of the deposited data

How the results depend on the processing

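No paired analysis was possible because no count column could be tied to a sample or a replicate number. The other filters, scalings, replicate block and omission of each replicate planned for the counts were not run because no count column was used, none being shown by its name to hold a sample of this series. Other settings for the strand of the RefSeq match and for olfactory receptor descriptions were not run because the RefSeq list holds neither. Requiring at least 4 other models nearby lowered the members from 129 to 77, since fewer models meet it. The other 6 alternatives to the member rule gave 99 to 171 members. The number of arrays was 40 with a gap limit of 100000 bp and 25 with 500000 bp, against 27. All 88 RefSeq matches held at 1 shared base and at 90% of the member. Among pairs with starts within 50000 bp, 66.7% shared a strand. Chosen after seeing the data, a demand for 50% coverage raised the RefSeq genes without a gene model from 43 to 46, and a limit of 3 bp gave 19 short-gap gene models in place of 20. Also chosen after seeing the data, leaving out the 2 LG4 arrays of longer members turned the SD of length between array means minus that within arrays from 14.60 to -1.87 bp.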

Other observations

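Among the 620 RefSeq protein-coding genes of 880 to 1100 bp outside the arrays, the share without any gene model in the table differed by symbol. It was 379 of 549 (69.0%) for genes with a LOC number and 14 of 71 (19.7%) for genes with another symbol.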
